A study of Mus musculus with 4 samples.

Results

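Odorant detection in olfactory sensory neurons ends in a small set of enzymes and membrane proteins, and 8 genes for them were followed here out of the 22399 genes of the count tables. They were taken by name: Adcy3, Cnga2, Cnga4, Cngb1, Ano2, Slc24a4, Slc12a2 and Stoml3. The data are single-cell RNA libraries of the main olfactory epithelium, the sheet in the nose where sensory neurons arise and lie among supporting cells. Female mice gave 2 of the 4 libraries and male mice the other 2, all wild type, of strain C57BL/6J and 3 months old. The labels do not say that each library came from its own animal, so the p-values measure the spread between these libraries, which may be partly technical. The series concerns presynaptic adhesion molecules in the targeting of olfactory axons, and no group was treated or mutated.

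Odorants bind receptors on the cilia of the neuron, and the G protein released there turns on the adenylyl cyclase encoded by Adcy3, which makes cyclic AMP. Cyclic AMP opens a cation channel built from the subunits encoded by Cnga2, Cnga4 and Cngb1, and the calcium that enters opens the chloride channel encoded by Ano2. Chloride leaves the cell because the cotransporter encoded by Slc12a2 has loaded it, the exchanger encoded by Slc24a4 removes calcium afterwards, and Stoml3 encodes a stomatin-like protein of the ciliary membrane.

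Ebf factors, known for their sites in promoters of olfactory neuron genes, bind a palindrome, and its core was looked for at the starts of these genes. Slc12a2 was left out of this search, so the counts of windows below do not cover it, and whether its starts hold the motifs was not tested. For the other 7 of the 8 genes RefSeq start sites on GRCm38.p6 gave 10 windows. Each reached from 250 bases before to 50 bases after a start. The letters CCCNNGGG, which read the same on both strands, were found in 5 windows of 5 genes, and 13.7% of all 32851 windows of this length hold them. The longer Ebf palindrome, the same core with a T before it and an A after it, was in none of the 10 windows and in 0.904% of all windows. The homeodomain core TAATTA, which shares no letters with the first motif and is likewise its own reverse complement, was in none of the 10 and in 5.29% of all windows. The windows of the channel subunit genes are printed because 1 motif lies in each of them while the genes differ in the stage at which they rise, as given further on. Capitals mark the motif, and each run is 5′ to 3′ on the gene's strand.
Cnga2, chrX:71991599-71991898, plus strand: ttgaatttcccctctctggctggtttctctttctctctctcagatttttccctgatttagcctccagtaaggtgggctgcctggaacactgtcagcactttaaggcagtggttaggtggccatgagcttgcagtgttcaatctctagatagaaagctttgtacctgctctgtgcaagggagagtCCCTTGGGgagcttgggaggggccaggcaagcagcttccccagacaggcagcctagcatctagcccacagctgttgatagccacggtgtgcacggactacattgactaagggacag
Cnga4, chr7:105404318-105404617, plus strand: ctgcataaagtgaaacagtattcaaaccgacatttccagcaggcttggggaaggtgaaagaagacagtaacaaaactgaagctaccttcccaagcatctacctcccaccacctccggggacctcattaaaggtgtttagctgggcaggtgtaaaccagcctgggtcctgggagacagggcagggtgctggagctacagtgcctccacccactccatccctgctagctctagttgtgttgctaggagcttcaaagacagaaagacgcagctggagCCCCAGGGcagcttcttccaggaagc
Cngb1, chr8:95306536-95306835, minus strand: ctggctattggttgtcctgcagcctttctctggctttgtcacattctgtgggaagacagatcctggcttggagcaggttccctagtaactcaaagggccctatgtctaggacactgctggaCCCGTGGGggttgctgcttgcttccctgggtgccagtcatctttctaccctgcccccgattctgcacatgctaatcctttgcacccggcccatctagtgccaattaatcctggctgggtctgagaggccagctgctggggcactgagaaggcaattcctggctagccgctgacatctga
Counted from the start site, the motif began at position -66 in Cnga2, at 25 in Cnga4 and at -129 in Cngb1. It also began at -109 in the Slc24a4 window and at -67 in 1 of the 3 windows of Ano2. Neither window of Adcy3 nor that of Stoml3 held it. A match of letters is a description of the sequence and not evidence of binding.

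The lineage was cut into 5 stages by UMIs, the molecule tags that make each count 1 captured RNA molecule. Barcodes with at least 2 Neurod1 UMIs stand for neuronal precursors and those with at least 2 Tex15 UMIs for the earliest neurons. At least 5 Gap43 UMIs mark immature neurons, which were split at 10 Omp UMIs, and at least 10 Omp UMIs without that much Gap43 mark mature neurons. Of 41911 barcodes, 39715 passed the quality limits and 21788 fell in a stage, with 136 to 174 per library in the Neurod1 stage, 290 to 383 in the Tex15 stage, 383 to 418 in the Gap43 stage, 244 to 309 in the Gap43 and Omp stage and 4132 to 4420 in the Omp stage. Among genes not used for gating, Neurog1 averaged 607 CPM in the Neurod1 stage and Crabp1 6420 CPM in the Tex15 stage. Stmn2 averaged 3050 CPM in the Gap43 stage and Gng13 4623 CPM in the Omp stage. Each is given at 1 stage only, so these values do not show an order. Libraries held 100725429 to 111577458 UMIs, and pairs of libraries shared 136 to 172 barcode sequences. Barcodes with at least 10 Omp UMIs and the markers of another cell class, 6.74% to 8.14% of the barcodes kept, were left out as mixed. Levels are CPM, UMIs per 1000000 UMIs of a stage in a library. With 5′ tags a long transcript is not counted more than once, so CPM of different genes are compared without division by length, though capture can differ between genes.

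Free RNA can set a floor under these levels. Horizontal basal cells, the reserve stem cells of the epithelium, served as a stand-in for it, with 205 to 350 per library. Their own expression of these genes was not told apart from free RNA. Their median depth, 8008 to 8654 UMIs, was below the 10299 to 10925 UMIs of the Neurod1 stage. Stoml3 had a UMI in 76.0% of horizontal basal barcodes and Adcy3 in 27.8%, against 6.44% for Cnga4, 5.32% for Cngb1 and 3.16% for Slc24a4. After thinning every barcode to 2000 UMIs these shares were 31.0%, 6.95%, 1.38%, 1.40% and 1.07%. In the Neurod1 stage every gene of the set had at least 1 library at or below the highest horizontal basal level. No gene of the set therefore stood above this floor in all 4 libraries of that stage. Slc12a2 lay below the horizontal basal values there, as given further on, so these cells are not a strict floor for every gene. Values that follow are in the order female 1, female 2, male 1 and male 2.

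Adcy3, the cyclase, rose early and fell a little in the Gap43 stage before its main increase. Its level in the Neurod1 stage was 28.8, 31.1, 37.2 and 32.9 CPM, where horizontal basal cells held 34.0 to 45.1 CPM. In the Tex15 stage it was 135, 153, 140 and 136 CPM and in the Gap43 stage 107, 110, 114 and 113 CPM. The 4 libraries of the Gap43 stage all lay below the 4 of the Tex15 stage. The level then reached 361, 422, 392 and 400 CPM in the Gap43 and Omp stage and 1713, 1681, 1696 and 1703 CPM in the Omp stage. Libraries of neighbouring stages did not overlap at any of the 4 steps, and the last step, a rise of 2.28 ± 0.05 (log2 fold change ± SE), was the largest for this gene.

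Cnga2 encodes the principal subunit of the channel, which can form a channel without the others. It was at 21.2, 16.6, 32.1 and 10.96 CPM in the Neurod1 stage and at 37.5, 28.7, 24.95 and 35.0 CPM in the Tex15 stage, where the ranges overlapped each other and horizontal basal cells held 25.5 to 27.9 CPM. In the Gap43 stage it stood at 181, 197, 198 and 200 CPM, above every earlier value. It was at 639, 663, 652 and 642 CPM in the Gap43 and Omp stage and at 1109, 1064, 1027 and 1052 CPM in the Omp stage. The Gap43 and Omp stage thus held 61.1% ± 2.49 (SD, n = 4) of the Omp stage level, the highest share after Slc12a2.

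Cnga4 and Cngb1 encode the modulatory subunits, which tune ligand sensitivity and calmodulin feedback. Cnga4 was at 20.5, 22.1, 17.0 and 22.3 CPM in the Gap43 stage, at 175, 175, 177 and 170 CPM in the Gap43 and Omp stage and at 567, 568, 571 and 567 CPM in the Omp stage. Cngb1 was at 36.8, 39.1, 38.3 and 43.1 CPM in the Gap43 stage, at 125, 129, 142 and 129 CPM in the Gap43 and Omp stage and at 380, 380, 380 and 361 CPM in the Omp stage. No library of 1 stage overlapped those of the next for either gene over these stages. The subunit transcripts were therefore not in a fixed proportion. Cnga4 molecules per Cnga2 molecule numbered 0.106 ± 0.013 (SD, n = 4) in the Gap43 stage, 0.269 ± 0.0051 in the Gap43 and Omp stage and 0.535 ± 0.0185 in the Omp stage, with no overlap of libraries. For Cngb1 the same ratio to Cnga2 was 0.203 ± 0.0094, 0.202 ± 0.010 and 0.353 ± 0.013. Per Cngb1 molecule there were 0.521 ± 0.055 Cnga4 molecules in the Gap43 stage and 1.51 ± 0.037 in the Omp stage. Adcy3 molecules per Cnga2 molecule numbered 4.603 ± 1.01 in the Tex15 stage, where Cnga2 was near the floor. They numbered 0.573 ± 0.013 in the Gap43 stage and 1.60 ± 0.046 in the Omp stage. The ratios of Cnga4 and Cngb1 to Cnga2 were likewise higher in the Tex15 than in the Gap43 stage, at 0.403 ± 0.098 and 0.343 ± 0.053.

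Ano2, the chloride channel, opens when calcium enters. It was at 27.0, 20.5, 28.9 and 20.2 CPM in the Gap43 stage, at 63.4, 72.9, 71.4 and 60.3 CPM in the Gap43 and Omp stage and at 196, 161, 188 and 156 CPM in the Omp stage. In the Gap43 and the Omp stage the libraries numbered 1 were above those numbered 2 in both sexes, while in the Gap43 and Omp stage female 1 was below female 2, and the stages themselves did not overlap. Slc24a4, the exchanger, stayed at 5.2, 7.9, 7.9 and 7.1 CPM in the Gap43 stage, close to the 3.4 to 4.7 CPM of horizontal basal cells. It then stood at 42.7, 47.1, 45.6 and 41.9 CPM in the Gap43 and Omp stage and at 175, 167, 159 and 161 CPM in the Omp stage, without overlap.

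Slc12a2, the cotransporter that loads chloride, followed another course. It was at 40.4, 34.9, 43.0 and 32.9 CPM in the Neurod1 stage, below the 45.2 to 58.1 CPM of horizontal basal cells, and at 203, 114, 123 and 163 CPM in the Tex15 stage. The Gap43 stage had 158, 141, 144 and 164 CPM, within the range of the Tex15 stage, the Gap43 and Omp stage 235, 234, 232 and 235 CPM and the Omp stage 259, 251, 275 and 257 CPM. Already in the Tex15 stage it had 58.0% ± 16.2 of its Omp stage level (SD, n = 4), and in the Gap43 and Omp stage 90.1% ± 3.98. Female 1 was the highest library in the Tex15 stage, where the summed CPM of 5 gland and secretory cell markers ranged from 25.7 to 2804 between libraries. Barcodes with UMIs of fewer than 2 of the 4 neuronal genes Dcx, Gng8, Stmn2 and Ncam1 made up 5.39% to 7.59% of that gate and held 10305 of the 10399 gland marker UMIs of female 1. Without those barcodes Slc12a2 was at 160, 110, 125 and 153 CPM, with female 1 still the highest library.

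Stoml3 was the most abundant gene of the set in the Omp stage and had the largest change of the 8 when Omp came up in Gap43-positive neurons. It was at 280, 244, 291 and 272 CPM in the Gap43 stage, a little above the 172 to 221 CPM of horizontal basal cells. In the Gap43 and Omp stage it stood at 4393, 4779, 4771 and 4393 CPM and in the Omp stage at 11003, 10600, 10455 and 10055 CPM. There were 1.17 ± 0.035 Stoml3 molecules per Omp molecule in the Gap43 and Omp stage and 1.17 ± 0.079 in the Omp stage (SD, n = 4). This ratio was 1.38 ± 0.23, 1.42 ± 0.15 and 1.36 ± 0.12 in the Neurod1, Tex15 and Gap43 stages. All of these gates are set on Omp itself, and the ratio was not constant within the Omp stage. Barcodes there with 10 to 29 Omp UMIs held 9379 CPM of Stoml3 and 4779 CPM of Omp. Those with at least 100 held 11327 and 10397 CPM.

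**Figure D1:**
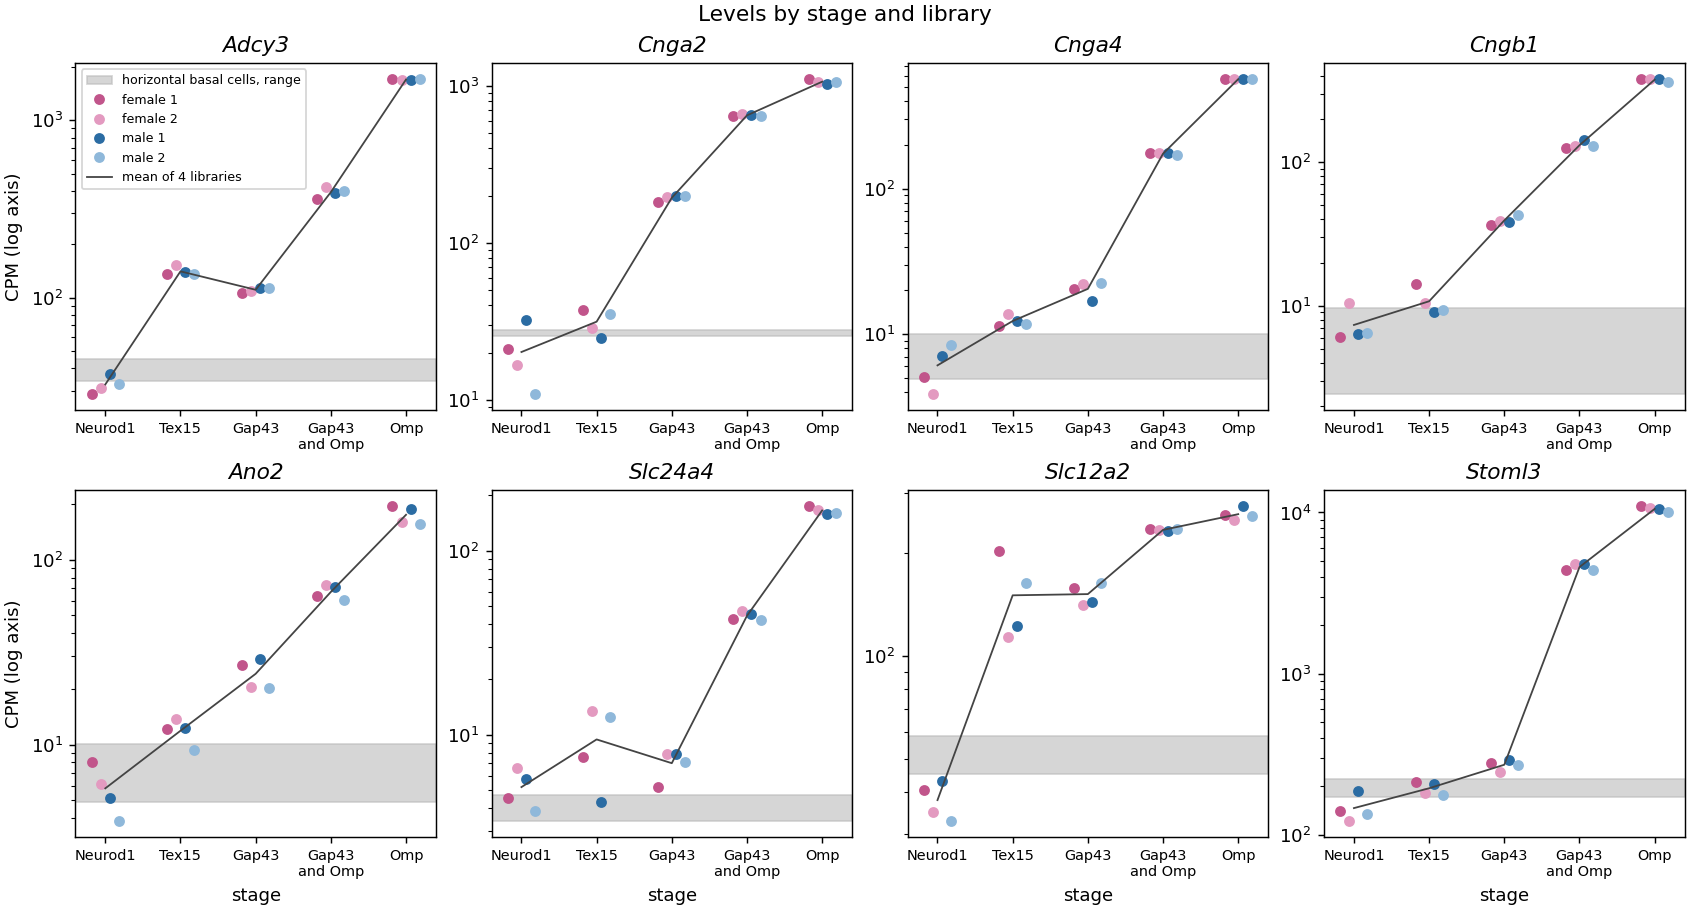
CPM of each gene (vertical axis, logarithmic) in the 5 stages (horizontal axis). Points are the 4 libraries, the line joins their means and the grey band spans the 4 horizontal basal values. Slc12a2 reached 151 CPM on average in the Tex15 stage and Cnga2 194 CPM in the Gap43 stage, while Stoml3 went from 272 to 4584 CPM at the next step.

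The steps were tested over all genes with the quasi-likelihood test of edgeR on sums per library and stage, with the library as a block. In the Tex15 stage against the Neurod1 stage 56.7% of 12764 genes were called and 28.6% were called higher, and all 8 genes of the set were higher. Adcy3 rose by 2.13 ± 0.07 (log2 fold change ± SE, edgeR adjusted p = 1.91e-13) and Slc12a2 by 1.996 ± 0.15 (adjusted p = 4.00e-09). The other 6 rose by 0.42 to 1.04, between levels at or near the floor. With Neurod1 and Tex15 gates of 1 UMI, Gap43 of 3 and Omp of 5, none of these 6 was called, and Cnga2, Cngb1 and Slc24a4 fell by 0.26, 0.26 and 0.34 without passing the test. Leaving out single libraries also ended calls: female 1 or male 2 for Cnga2 (edgeR adjusted p = 0.0541 and 0.0976), each library but female 2 for Cngb1 (0.0549 to 0.387) and each but male 1 for Slc24a4 (0.0537 to 0.228). Cngb1 was not called with stricter gates or without the deepest 8% of barcodes (edgeR adjusted p = 0.0945 and 0.111). Slc24a4 was not called under either of these (0.0841 and 0.110) or with at least 4000 UMIs per barcode (0.101). For Slc24a4 the change was -0.0057 (edgeR adjusted p = 0.991) once Tex15 barcodes without the neuronal genes were removed.

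Between the Tex15 and the Gap43 stage the set divided, while 62.5% of all genes were called, 31.0% higher and 31.5% lower. Cnga2 rose by 2.55 ± 0.12 (log2 ± SE, edgeR adjusted p = 1.33e-11), Cngb1 by 1.78 ± 0.12, Ano2 by 0.98 ± 0.14, Cnga4 by 0.69 ± 0.11 and Stoml3 by 0.43 ± 0.08. Adcy3 fell by 0.40 ± 0.05 (edgeR adjusted p = 5.54e-06). Slc12a2 with -0.04 ± 0.11 and Slc24a4 with -0.47 ± 0.24 did not pass the test (edgeR adjusted p = 0.747 and 0.0965), although Slc24a4 did with the looser gates (-0.90, adjusted p = 0.00197) and without male 1 (-0.73, adjusted p = 0.0157). The Slc12a2 value changed sign under 5 alternatives, given in the closing section.

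At the step from the Gap43 stage to the Gap43 and Omp stage 58.1% of genes were called and 29.5% were higher, and all 8 genes rose. Stoml3 led with 4.23 ± 0.08 (log2 ± SE, edgeR adjusted p = 1.50e-16), before Cnga4 with 3.24 ± 0.07, Slc24a4 with 2.82 ± 0.16, Adcy3 with 1.98 ± 0.05, Cnga2 with 1.90 ± 0.09, Cngb1 with 1.89 ± 0.07, Ano2 with 1.63 ± 0.09 and Slc12a2 with 0.78 ± 0.10. The set had a median of 1.94, and all genes tested had a median of -0.03. From there to the Omp stage 56.2% of genes were called, 32.5% higher and 23.7% lower, and all 8 rose again, with a median of 1.62 against 0.08 for all genes. Adcy3 led with 2.28 ± 0.05 (edgeR adjusted p = 1.44e-16), then Slc24a4 with 2.07 ± 0.09, Cnga4 with 1.87 ± 0.05, Cngb1 with 1.69 ± 0.06, Ano2 with 1.55 ± 0.07, Stoml3 with 1.37 ± 0.07 and Cnga2 with 0.88 ± 0.09. Slc12a2 changed least, by 0.32 ± 0.09 (edgeR adjusted p = 0.00649), and it was not called without TMM scaling (0.15, adjusted p = 0.177) or without male 1 (0.23, adjusted p = 0.0691). Split by Omp UMIs, Slc12a2 was higher in the Omp stage with 10 to 29 and 30 to 59 UMIs. With 60 to 99 it went from 256 ± 9.40 to 238 ± 5.61 CPM (SD, n = 4), libraries overlapping. With at least 100 it went from 282 ± 7.90 to 239 ± 11.1 CPM. The other genes of the set were higher in the Omp stage in both of these bins. Median depth was 12742 to 13993 UMIs in the Gap43 and Omp stage and 7727 to 8493 UMIs in the Omp stage. Its part was not tested.

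TMM scaling, which corrects the totals for a few very abundant genes, mattered at these 2 later steps. It moved the median log2 change of all genes by 0.15 and 0.17 relative to plain totals. Of the called genes 50.7% and 57.8% were higher with it, against 35.3% and 36.1% without it. The 8 genes kept their direction at both steps under either scaling.

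**Figure D2:**
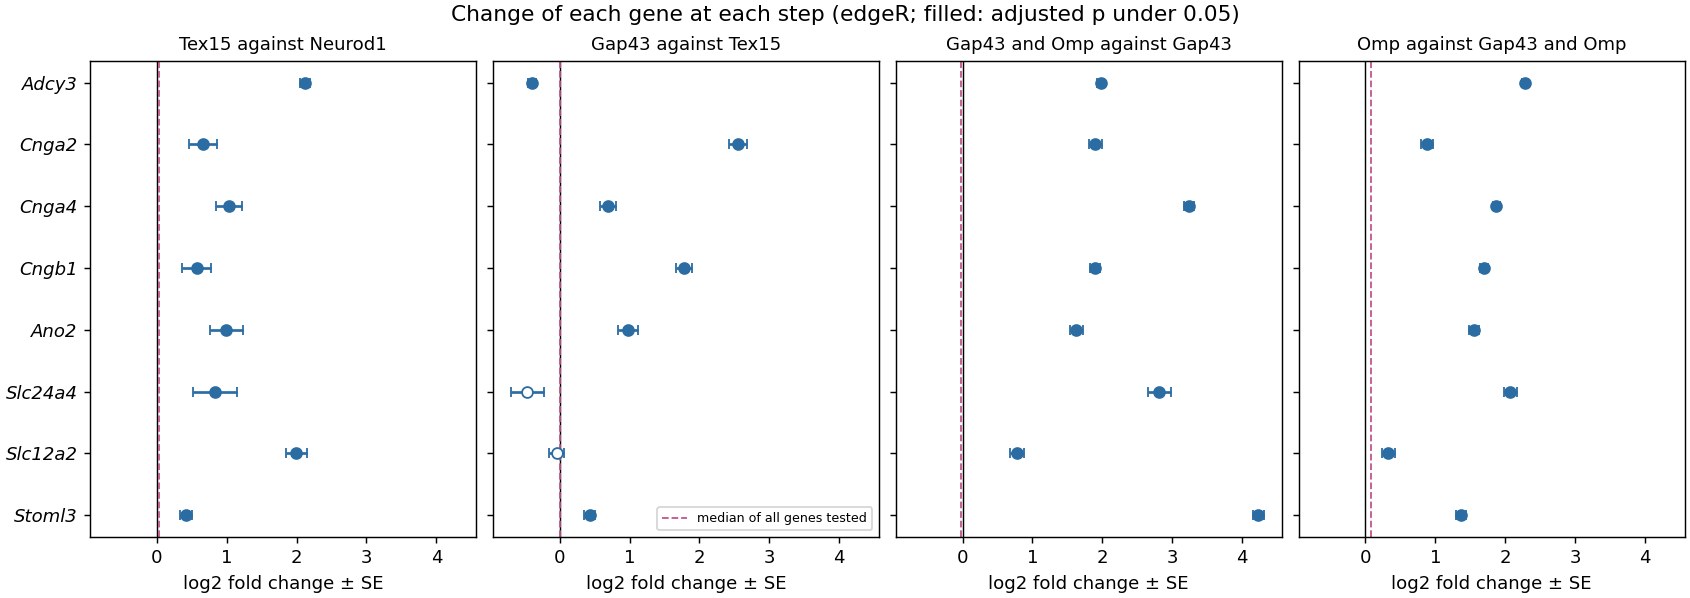
Log2 fold change with its SE (horizontal axis) of each gene at the 4 steps, 1 panel a step, from edgeR fits over 12764 genes. Filled points passed an adjusted p of 0.05, open points did not, and the dashed line is the median of all genes tested. Cnga2 has its largest change at the Gap43 step, Stoml3 and Cnga4 at the next and Adcy3 at the last.

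The order of onset was read as the first stage that reached 10% of the highest stage of the same library. Slc12a2 reached it in the Neurod1 stage in all 4 libraries, or in the Tex15 stage when the level also had to exceed the highest horizontal basal value. Cnga2 and Ano2 reached it in the Gap43 stage in 4 of 4 libraries and Cngb1 in 3 of 4, with female 1 a stage later. Cngb1 was close to the limit there, at 10.5% ± 0.99 of its Omp stage level (SD, n = 4). With the looser gates it came in the Gap43 and Omp stage in 3 of 4 libraries. Adcy3, Cnga4, Slc24a4 and Stoml3 reached it in the Gap43 and Omp stage in all 4. A limit of 50% was reached in the Gap43 and Omp stage for Cnga2 and in the Omp stage for the other 6 apart from Slc12a2. The position of Adcy3 depends on this limit, since its Tex15 and Gap43 levels were 8.30% and 6.53% of its Omp stage level. At 5% it came in the Tex15 stage in all 4 libraries, as Ano2 did, and at 25% in the Omp stage in 3 of 4.

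A finer view came from barcodes with at least 5 Gap43 UMIs split by their Omp UMIs, in 7 bins with at least 26 barcodes per library. From 0 Omp UMIs to at least 100, Stoml3 went from 153 ± 16.9 to 7321 ± 192 CPM (SD, n = 4). Over the same bins Cnga2 went from 130 ± 21.1 to 818 ± 53.6 CPM and Adcy3 from 107 ± 16.5 to 781 ± 44.4 CPM. Cnga2 was already at 478 ± 13.8 CPM with 10 to 29 Omp UMIs, where Adcy3 was at 197 ± 11.99 CPM and Cnga4 at 81.5 ± 5.83 CPM. Between 60 to 99 and at least 100 Omp UMIs Cnga2 went from 743 to 818 CPM, while Adcy3 went from 512 to 781 CPM and Ano2 from 76.7 to 129 CPM. Slc12a2 spanned 133 ± 12.3 to 282 ± 7.90 CPM. Median depth went up along the bins, from between 9332 and 10465 UMIs to between 16483 and 17060, and its part in these values was not tested.

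**Figure D3:**
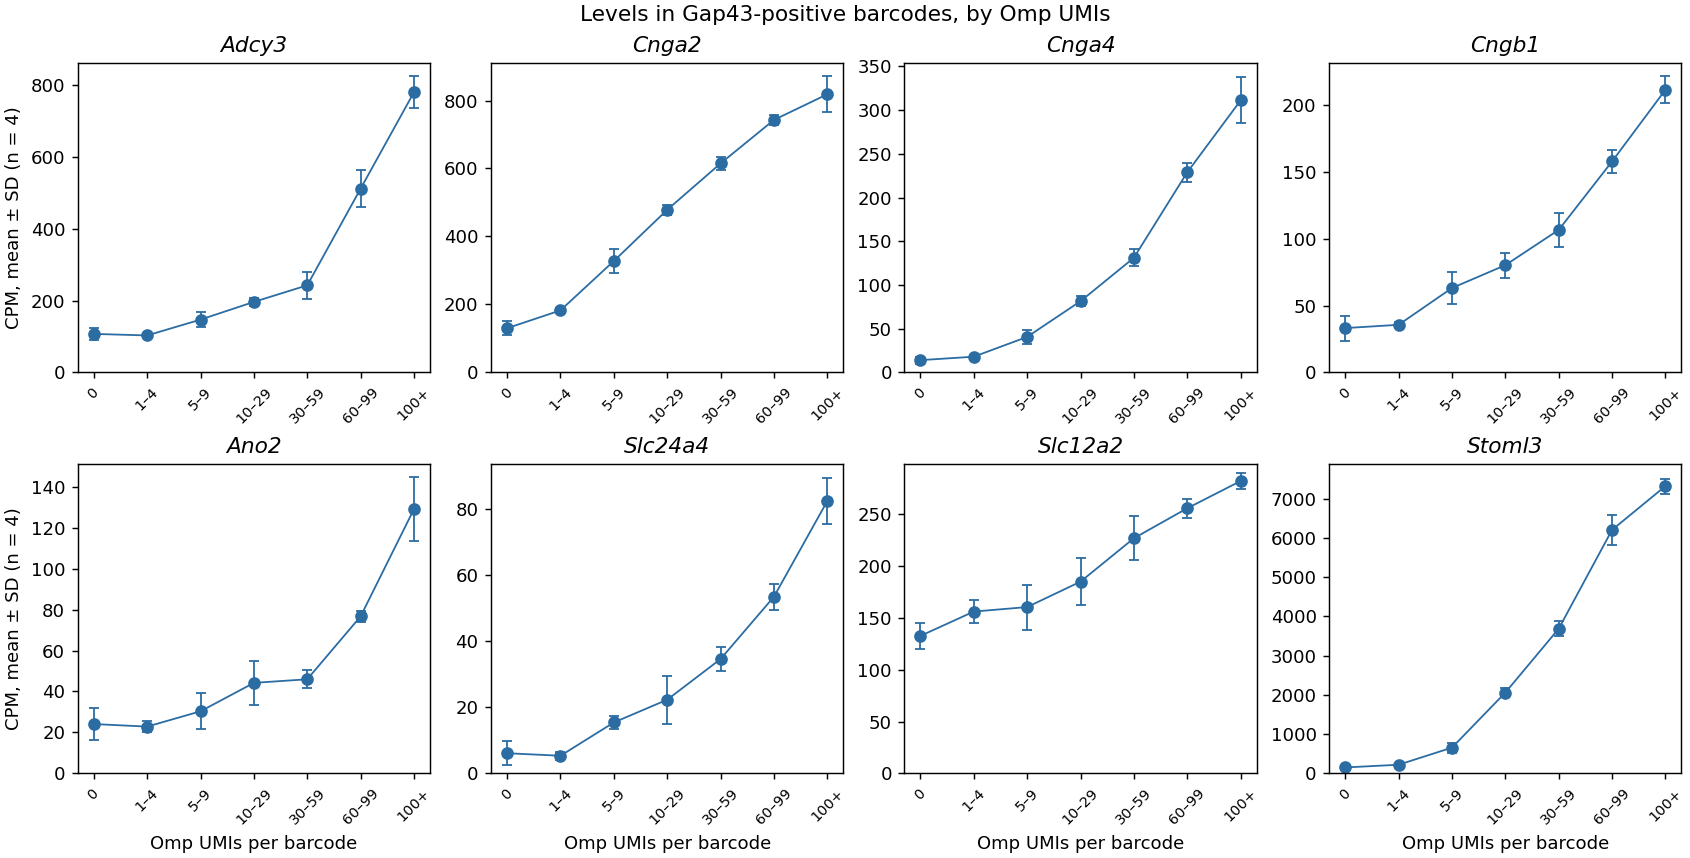
Mean CPM ± SD of 4 libraries (vertical axes from 0) in Gap43-positive barcodes by Omp UMIs per barcode (horizontal axis). Cnga2 bends over towards 818 CPM in the last bin, while Adcy3 stays near 100 CPM in the first bins and ends at 781 CPM.

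Other genes of the cascade were taken from a list of 38 symbols, of which 36 were in the tables and 33 were tested along the stages. At the 4 steps 20, 22, 23 and 20 of them were higher and 6, 6, 3 and 10 lower, with medians of 0.51, 0.55, 0.81 and 0.36. Of all genes tested 28.6%, 31.0%, 29.5% and 32.5% were higher and 28.1%, 31.5%, 28.7% and 23.7% lower, so the 10 lower of 33 at the last step are near the share of all genes. Gnal, the G protein subunit that activates the cyclase, rose at each step, by 1.72, 1.18, 2.58 and 0.73, and Gnas, its relative, fell at each, by 0.88, 1.38, 1.63 and 1.95. Pde1c, a phosphodiesterase that degrades cyclic AMP in the cilia, took the course of Adcy3: it rose by 1.67, fell by 0.63, then rose by 1.75 and 1.75. Slc8a1, a sodium-calcium exchanger, fell by 0.61 from the Tex15 to the Gap43 stage and then rose by 2.92 and 1.38. Ric8b, which helps fold the G protein, rose at each step, by 1.09, 0.48, 1.76 and 1.34. The largest falls called at the 4 steps were Camk4 with -2.85, Grk3 with -2.53, Gnas with -1.63 and Gng8 with -5.27. The largest rises were Pde4a with 2.64, Kif17 with 2.31, Slc8a1 with 2.92 and Pde1c with 1.75.

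Paralogs of the 8 genes, 37 by symbol with 19 tested, gave 6, 6, 7 and 7 higher and 4, 5, 4 and 3 lower, with medians of -0.02, -0.16, 0.25 and 0.31. The 10, 11, 11 and 10 called of 19 are near the 56.7%, 62.5%, 58.1% and 56.2% of all genes. Stom, the stomatin gene related to Stoml3, rose by 3.45 in the Gap43 and Omp stage and by 1.32 after it, to 2559 CPM. Slc24a2, an exchanger related to Slc24a4, was at 280 CPM in the Omp stage, above the 165 CPM of Slc24a4, and had risen earlier, by 1.78 in the Gap43 stage. Ano10 fell by 0.32 and 0.67 at the last 2 steps, to 14.3 CPM. Slc12a5, a chloride extruder, averaged 12.9 CPM in the Omp stage beside the 260 CPM of Slc12a2.

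Outside the lineage 6 of the 8 genes had no level near that of the Omp stage in classes with at least 10 barcodes per library. Slc12a2 did: ionocyte-like microvillar cells, chosen by Ascl3, Foxi1, Cftr and Coch, had 1110, 956, 1033 and 1077 CPM from 41 to 64 barcodes per library. All 4 values exceeded the 251 to 275 CPM of the Omp stage. Sustentacular cells, the supporting cells, had 95.7 to 106 CPM of it, above the 45.2 to 58.1 CPM of horizontal basal cells. Slc24a4 was at 80.1, 85.8, 79.6 and 76.4 CPM in sustentacular cells, at 35.5 to 81.4 CPM in respiratory ciliated cells and at 41.3 to 92.3 CPM in the ionocyte-like cells. In sustentacular barcodes thinned to 2000 UMIs 15.8% had a Slc24a4 UMI, against 1.07% of horizontal basal and 29.2% of Omp stage barcodes, while Ano2 had 1.496%, 1.19% and 28.7%. Slc24a4 thus differed between the supporting and the basal cells by far more than Ano2 did.

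**Figure D4:**
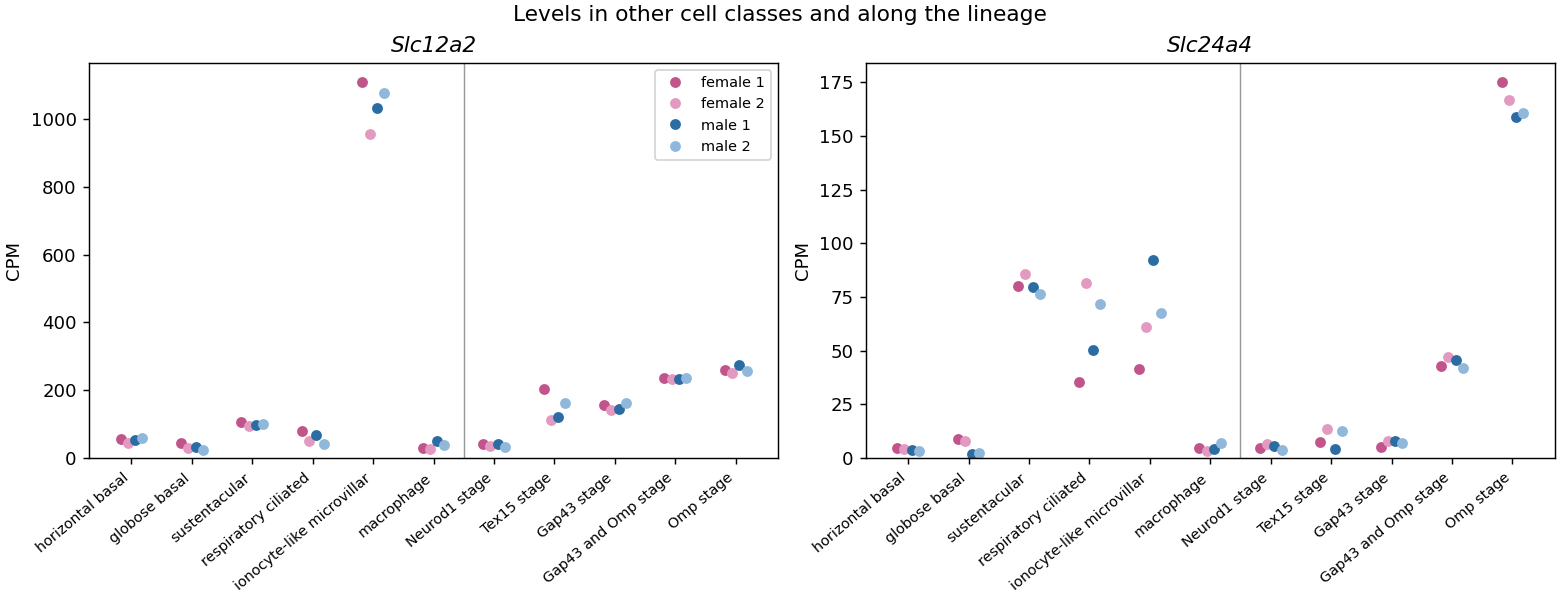
CPM of Slc12a2 and Slc24a4 (vertical axes from 0) in 6 other cell classes, left of the line, and the 5 stages, right of it, with 1 point per library. Slc12a2 is near 1000 CPM in ionocyte-like cells, and Slc24a4 is at 76.4 to 85.8 CPM in sustentacular cells.

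The sexes were compared in the Omp stage, 2 libraries against 2. edgeR called 3 of 13940 genes (0.0215%), all higher in males, and 0 of the 8, none of which had an unadjusted p under 0.05 either. DESeq2 called 204 genes and likewise 0 of the 8. Changes of male over female lay between -0.07 ± 0.04 for Slc24a4 and 0.09 ± 0.05 for Slc12a2 (log2 ± SE), with edgeR adjusted p from 0.868 to 0.987. Ano2 had the widest error, -0.03 ± 0.14. The counts of all genes turned on single libraries: 26 were called without female 2, 4 without female 1 and 0 without male 1 or male 2.

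Each mature neuron chooses mainly 1 odorant receptor gene, and levels were compared between neurons that chose different receptors. A receptor was assigned to Omp-positive barcodes when 1 gene held 3 or more UMIs and 80% or more of all Olfr UMIs, and 57 receptors had at least 10 such barcodes in every library, 5082 barcodes in all with 46 to 301 per receptor. Receptors with near-identical copies may share UMIs. All 57 were class II. edgeR called 33.5% of 9818 genes between receptors, and all 8 genes of the set (largest adjusted p = 1.65e-04, Slc24a4). The F value of Stoml3, 35.8, ranked 28th of the 9818 and that of Ano2, 25.7, ranked 50th.

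Ano2 had the widest range, 6.54-fold, from 65.2 CPM with Olfr731 to 426 CPM with Olfr727. Its level with Olfr727 was 438, 355, 482 and 470 CPM and with Olfr731 88.8, 66.0, 53.0 and 46.5 CPM, from 172 and 71 barcodes. These receptor genes lie in the same stretch of chromosome 14 (GRCm38, GENCODE M21), Olfr727 at chr14:50123186-50128746 and Olfr731 at chr14:50233531-50241866. Olfr726 at chr14:50083570-50090953 went with 345 CPM, and Olfr728 at chr14:50133758-50142680 and Olfr730 at chr14:50183296-50188198 went with 121 and 107 CPM. This stretch was chosen because it holds both extremes. Elsewhere some neighbours were alike and others were not. Olfr533 and Olfr536 on chromosome 7 went with 339 and 373 CPM, while Olfr541, further along that chromosome, went with 123 CPM. Olfr190 and Olfr195 on chromosome 16 went with 137 and 340 CPM. The SD of log2 CPM over the 57 receptors was 0.66 for Ano2, where counting error alone gives 0.14, and Pearson's r between the female and the male libraries was 0.88.

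Stoml3 spanned 5222 CPM with Olfr455 to 19145 CPM with Olfr1110, a 3.67-fold range. It was at 4270, 5061, 6092 and 5537 CPM with Olfr455 and at 21689, 19178, 17770 and 18625 CPM with Olfr1110, so the libraries of the 2 receptors were far apart. The SD was 0.46 with a counting error of 0.02, and female and male values had r = 0.93. Omp itself, measured the same way, had an SD of 0.12 and a 1.52-fold range.

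The channel subunits and the cyclase varied less. Cnga2 ranged from 621 CPM with Olfr731 to 1735 CPM with Olfr1110, Cnga4 from 343 CPM with Olfr455 to 944 CPM with Olfr309, and Cngb1 from 251 CPM with Olfr1271 to 550 CPM with Olfr727. Adcy3 ranged from 1090 CPM with Olfr1271 to 2464 CPM with Olfr1301. Their SDs were 0.29, 0.35, 0.26 and 0.27, and r between the sexes was 0.84, 0.81, 0.50 and 0.76. Slc12a2 ranged from 148 CPM with Olfr455 to 392 CPM with Olfr1507, whose libraries held 396, 388, 448 and 327 CPM (r = 0.69). Slc24a4 was the least reproducible, with an SD of 0.25 beside a counting error of 0.15 and r = 0.25.

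The same receptors recurred at the ends of these ranges. Of the 57, Olfr1110 ranked 1st for Stoml3 and Cnga2 and 2nd for Cnga4 and Slc12a2, and Olfr1301 ranked 1st for Adcy3 and among the first 6 for each of the 8. Olfr731 ranked 53rd to 57th for Adcy3, Cnga2, Cngb1, Ano2, Slc12a2 and Stoml3, but 16th for Slc24a4 and 47th for Cnga4. Taking 1 gene from the females and the other from the males, r over receptors was highest for Adcy3 with Stoml3 (0.76) and Cnga2 with Stoml3 (0.76), and it was 0.03 to 0.21 for the pairs with Slc24a4. These are descriptions over 57 receptors that share libraries and totals. Mean depth of the receptors had an r of 0.01 with Adcy3, 0.10 with Ano2, -0.02 with Stoml3, -0.23 with Slc12a2 and -0.31 with Slc24a4.

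**Figure D5:**
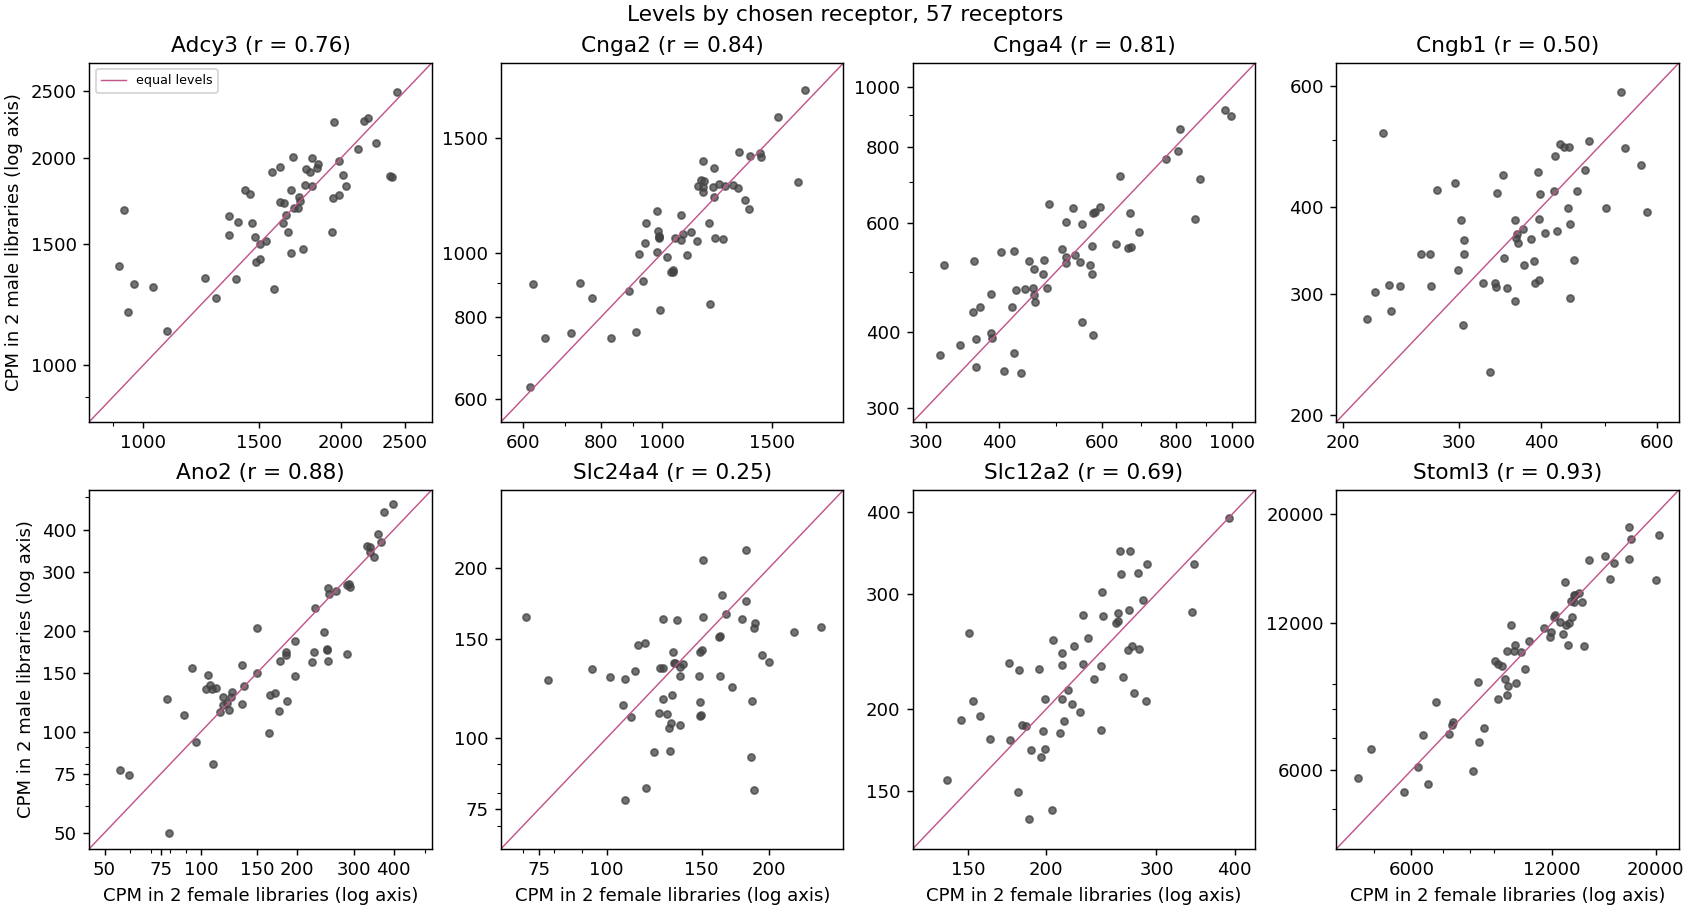
CPM of each gene in the female libraries (horizontal axis) and the male libraries (vertical axis), both logarithmic, with 1 point for each of 57 receptors and a line of equal levels. Stoml3 (r = 0.93) and Ano2 (r = 0.88) lie closest to a line and Slc24a4 (r = 0.25) is scattered.

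Class I receptors, the group most like those of fish, were compared with class II by sums over 259 to 418 and 3673 to 3890 barcodes per library. Of 12804 genes 23.8% were called by edgeR, 9.8% higher and 14.0% lower in class I, and 7 of the 8 were called. Slc12a2 was higher by 0.42 ± 0.04 (log2 ± SE, edgeR adjusted p = 5.00e-07), at 324, 341, 319 and 336 CPM against 247, 238, 265 and 242 CPM. Slc24a4 was higher by 0.41 ± 0.06. The other 5 were lower: Stoml3 fell by 0.45 ± 0.03 (edgeR adjusted p = 6.97e-10), Ano2 by 0.35 ± 0.04, Cngb1 by 0.31 ± 0.04, Cnga2 by 0.29 ± 0.05 and Cnga4 by 0.17 ± 0.04. Stoml3 stood at 7881, 7462, 7271 and 7221 CPM in class I and at 10614, 10310, 10298 and 9898 CPM in class II, without overlap. Adcy3 differed by -0.05 ± 0.04 (edgeR adjusted p = 0.425). Class I barcodes had median depths of 7221 to 8385 UMIs against 8015 to 8710, and 2.27% to 4.55% of them were Gap43-positive against 5.05% to 6.34%. The part of these differences in the result was not tested, and the 7 calls held with at least 4000 UMIs per barcode.

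Genes whose course over the 20 sums of 5 stages and 4 libraries was most like that of each member were picked by the correlation of log2 CPM, as a description over sums that share libraries and stages. Adcy3 was closest to Pde1c (r = 0.995), Cnga2 to Jhy (0.997), Cnga4 to Cmip (0.996), Cngb1 to Ctsb (0.994), Ano2 to Ubl3 (0.991), Slc24a4 to Gpm6a (0.984) and Slc12a2 to Cacna1h (0.982). Stoml3 was closest to Omp (0.999), which is a gating gene, and then to Stom (0.998). Over the 57 receptors, with the sexes crossed, the closest genes were Pde4a for Adcy3 (0.75), Gnal for Cnga2 (0.76), Efr3b for Ano2 (0.85), Scn9a for Slc12a2 (0.67), Dlg2 for Slc24a4 (0.45) and Rnf128 for Cnga4 (0.77), Cngb1 (0.68) and Stoml3 (0.83).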

How the data were processed

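Droplet 5′ single-cell libraries were counted by the submitters with Cell Ranger, version 5.0.1 on mm10 per the submitters' processing notes and version 6.0.2 per the file headers. The deposited values are whole UMI counts of each gene in each barcode, not normalized. The annotation and the rule for calling cells are not given in the sources used here. Barcodes with fewer than 500 genes or over 10% mitochondrial UMIs were left out. A barcode with at least 2 UMIs of at least 3 markers of another class was put in that class, no doublet caller was run, and mixed barcodes were dropped. Counts were summed per library and stage, receptor or receptor class, and CPM were computed here without further scaling. Sums were tested with edgeR 4.0.16 in R 4.3.3 (quasi-likelihood test, TMM scaling, filterByExpr, Benjamini-Hochberg at 0.05). The receptor fit took genes with a mean count of at least 1 and left out receptor genes; it used edgeR's newer quasi-likelihood fit (legacy set to false), without the dispersion estimate per gene of the other fits. DESeq2 1.42.0 was an alternative, beside other scalings, filters, gates, depth limits and left-out libraries. Correlations over receptors used log2 CPM with 2 counts added. Class I receptors were the Olfr genes numbered 543 to 704 on chromosome 7. Symbols were used as deposited, and 22285 gene IDs matched GENCODE M21. Adcy3 overlaps Cenpo on the other strand, and how strand was used in counting is not given in the sources used here. The 8 members were reported in full. The lists of other cascade genes and paralogs were given by counts, with only some of their genes named. Of the 3 genes most like each member the closest was printed, and for Stoml3 over the stages also the next. Members, lists and gates were chosen with earlier results of these data known. Shares and levels cover counting error only where a counting error is named, and libraries of 100725429 UMIs or more limit precision mainly in the stages with few barcodes.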

Additional observations from a re-analysis of the deposited data

Results flagged for a closer look

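Each gene was examined in each of the stages and cell classes with at least 10 barcodes per library, 104 sets of 4 libraries, for 1 library far from the other 3 (the gap over the range above Dixon's 95% critical value). Chance alone singles out about 1 in 20 such sets, and 7 of the 104 stood out. In the Omp stage Cngb1 was at 361 CPM in male 2, where the others were at 380 CPM. In the Gap43 stage Cnga2 was at 181 CPM in female 1, against 197 to 200 CPM. In the Neurod1 stage Cngb1 was at 10.5 CPM in female 2, against 6.05 to 6.45 CPM, from 19 UMIs. In horizontal basal cells Adcy3 was at 34.0 CPM in male 1, against 43.5 to 45.1 CPM. Sustentacular cells held 27.7 CPM of Cnga2 in male 1 and 25.4 to 25.6 CPM in the others. Ionocyte-like cells held 306 CPM of Stoml3 in male 2 and 198 to 215 CPM in the others. Fibroblasts had 4.79 CPM of Slc24a4 in male 2, from 1 UMI, and 0 UMIs in the others.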

How the results depend on the processing

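Counts of called genes stayed within 1.5 times the reported ones for the 4 steps, the receptors and the receptor classes under every alternative run. Leaving out 1 library gave 6273 to 6745, 7129 to 7395, 6471 to 6796 and 6332 to 6557 genes at the 4 steps, 2490 to 2631 between receptors, 2398 to 2865 between classes and 0 to 26 between the sexes. For the sexes the count of 3 became 1 with no filter, 1 with at least 4000 UMIs, 1 with strict gates and 204 with DESeq2. Replicate numbers are shared by the sexes, but deviations of same-numbered libraries had r = -0.035, so the numbers were not taken as pairs; with the replicate block 0 genes were called, and with no library block 7031, 7738, 7187 and 6708 genes were called at the 4 steps. Of the 8 onset stages 5 stayed at a limit of 5% and 3 at 25%. Values that changed sign were, from the Neurod1 to the Tex15 stage, Cnga2 (-0.26), Cngb1 (-0.26) and Slc24a4 (-0.34) with loose gates and Slc24a4 (-0.0057) with neuronal barcodes only. From the Tex15 to the Gap43 stage they were Slc24a4 with neuronal barcodes only (0.37) and Slc12a2 with no scaling (0.0086), loose gates (0.095), without the deepest 8% of barcodes (0.014), with neuronal barcodes only (0.082) and without single libraries (-0.13 to 0.096, above 0 without female 1). Between the sexes they were Cngb1 with strict gates (0.0051) and without single libraries (-0.047 to 0.024, above 0 without male 2) and Ano2 without single libraries (-0.17 to 0.12, above 0 without female 1 and without male 2), none of them called; the causes were not tested. The restriction to neuronal barcodes and the horizontal basal limit were chosen after seeing the data. Early stages are limited by depth: the lowest library of the Neurod1 stage held 6 UMIs of Ano2 and 6 of Slc24a4.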

Other observations

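Omp-positive barcodes with under 5 Gap43 UMIs, those of the Omp stage, were also split by their Omp UMIs. The 2521 barcodes with 10 to 29 Omp UMIs had median depths of 3278 to 3658 UMIs per library, against 8019 to 8761 for the 7760 with 60 to 99. Adcy3 was at 2643 ± 30.1 CPM (SD, n = 4) in the shallow barcodes and at 1578 ± 9.87 CPM in the deeper ones, without overlap of libraries. Slc12a2 was at 469 ± 15.1 against 238 ± 5.61 CPM and Slc24a4 at 351 ± 23.6 against 150 ± 8.20 CPM. Cngb1 was at 614 ± 31.1 against 346 ± 9.12 CPM, whereas Cnga4 was at 572 ± 37.3 against 569 ± 2.83 CPM and Stoml3 at 9379 ± 144 against 10370 ± 377 CPM. No test was run on this split, which follows depth by its construction.

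Among the cascade genes tested between receptors, 20 of 29 were called by edgeR (33.5% of all genes were). Pde4a, a phosphodiesterase, had an F value of 40.6, above that of Stoml3, and Slc8a1 and Pde1c had 20.5 and 20.0. Among the paralogs 4 of 12 were called, Slc24a2 with 14.1 and Stom with 10.9 among them.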
